A study of Homo sapiens with 6 samples.

Results

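The 9 genes described here encode receptors that leukocytes use to adhere, namely the integrin alpha chains ITGAL, ITGAM, ITGAX, ITGA4 and ITGA5, the beta chains ITGB1, ITGB2 and ITGB7, and the selectin ligand SELPLG. They were chosen by gene name, with earlier results of these data known, and each matched 1 row among the 24878 genes of the deposited table. RNA-seq of poly-A RNA covered 6 libraries of MOLM-13, an established human acute myeloid leukaemia line labelled AML-M5, the monocytic type. Control cells, labelled with no doxycycline and, in the series design, a control vector, gave 2 libraries. Cells carrying a doxycycline-inducible CaMK2D-KO vector gave 2 libraries after 3 days and 2 after 5 days of induction. The labels do not say whether these cells were 1 clone or a pool, or name separate cultures behind the replicates. The p-values therefore reflect spread between libraries, which need not be spread between cultures. That spread went beyond counting noise. Between replicates, the chi-square over degrees of freedom was 37.7 in control, 17.4 at day 3 and 23.3 at day 5. The source of the spread was not tested. Vector and doxycycline differ from control at once and cannot be told apart, and both KO comparisons use the same 2 control libraries.

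Integrins are surface receptors made of 1 alpha and 1 beta chain, which only reach the cell surface as a pair. ITGB2 (CD18) pairs with ITGAL (CD11a) to form LFA-1, with ITGAM (CD11b) to form Mac-1 and with ITGAX (CD11c) to form the receptor CR4, which bind ICAM proteins and complement fragments. ITGB1 pairs with ITGA4 (VLA-4, a receptor for VCAM1 and fibronectin) and with ITGA5 (the classical fibronectin receptor), and ITGB7 pairs with ITGA4 to bind MADCAM1 in gut vessels. SELPLG (PSGL-1) is a mucin that carries the sugars recognised by P-, E- and L-selectin while leukocytes roll along vessel walls. Signals inside the cell, passed on by RAP1, talin and kindlin, switch integrins to a form that binds ligand. In monocytic cells LFA-1 and VLA-4 are known for adhesion to endothelium and marrow stroma, and CD11b and CD11c rise as myeloid cells mature.

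Total counts ranged from 15456770 to 21081298 per library. CAMK2D mRNA, the targeted gene, spanned 14.5 to 23.0 CPM (read counts scaled to library size) in control libraries, 14.7 to 15.6 at day 3 and 28.1 to 29 at day 5, so mRNA of the target gives no check of the genotype labels, since an edited gene can still be transcribed, and these libraries are called KO-labelled. Of 10 myeloid markers all had a row, with summed levels of 2600 to 3180 CPM in control libraries, 854 to 1000 at day 3 and 776 to 1060 at day 5. Of that sum, MPO, a granule enzyme, went from 662 and 1220 CPM to 16.5 and 27.7 at day 3 and 6.85 and 15.6 at day 5, and the receptor FLT3 from 1060 and 876 to 341 and 328 and to 241 and 269. CD33 was at 48.1 and 55.9 CPM, 47.5 and 55.2, and 49.0 and 51.1 in the same order, and PTPRC overlapped between the groups. The macrophage marker CD68 was at 0 in every library but KO day 3 replicate 2. Of 10 lymphoid markers 6 had a row, with summed levels of 203 to 235, 150 to 159 and 171 to 186 CPM in the same order, nearly all from NCAM1 and NKG7. The 4 erythroid and megakaryocyte markers of 10 with a row summed to 32.4 to 47.1, 32.3 and 31.1 to 34.3 CPM. The 5 epithelial, endothelial and stromal markers of 10 with a row summed to 151 to 252, 63.3 to 66.9 and 64.7 to 71.5 CPM. Most came from PECAM1, a gene of endothelium and leukocytes. PECAM1 stood at 217 and 134, 41.7 and 44.5, and 40.7 and 43.3 CPM in the same order. KRT18 (12.7 to 28.4 CPM) and KRT8 (4.79 to 8.79 CPM) were lower, and COL1A1 and DCN reached at most 0.192 CPM.

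Per unit of gene length, ITGB2 and ITGAL stood far above the other integrin genes in the controls. The deposited FPKM (fragments scaled to gene length and library size) was 92.2 and 69.7 for ITGB2 and 81.3 and 74.5 for ITGAL in control replicates 1 and 2. These ranges overlapped. SELPLG came next at 42.2 and 37.0 FPKM. ITGB1, at 24.1 and 17.9 FPKM, overlapped with ITGA5 at 22.8 and 16.4. ITGA4 (7.96 and 5.29 FPKM) overlapped with ITGAM (5.03 and 6.72), and ITGAX (2.6 and 2.68) with ITGB7 (2.64 and 1.46). In the KO-labelled libraries the order of the first 7 genes by mean FPKM was the same, while ITGAX moved below ITGB7 to the last place, at 0.494 and 0.695 FPKM on day 3, then 1.10 and 1.86 on day 5. At day 5 no neighbours in that order overlapped.

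**Figure D1:**
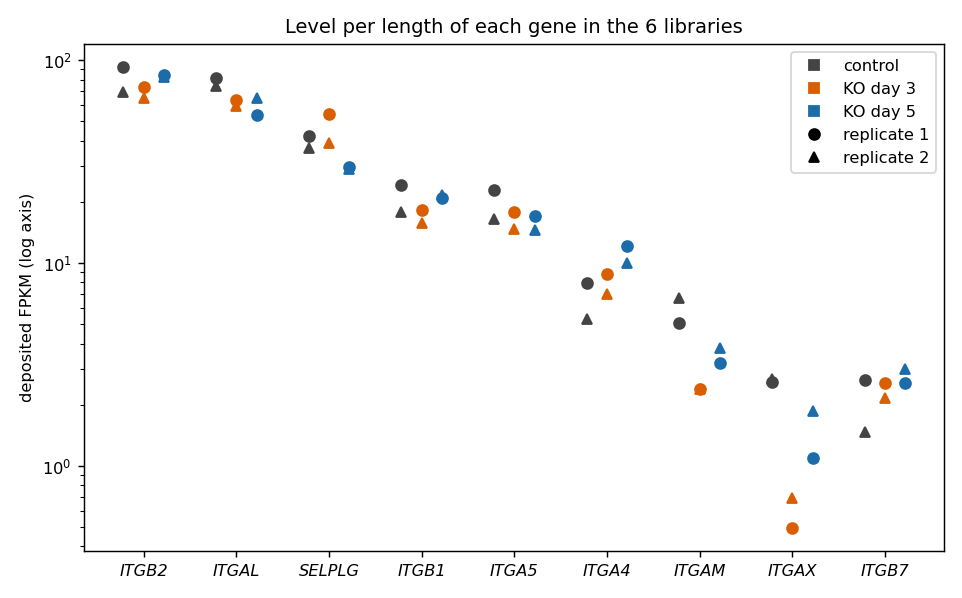
Deposited FPKM on a log axis for each of the 9 genes, ordered by their mean in control libraries, with 1 point per library (colour, group; circle, replicate 1; triangle, replicate 2). ITGB2 and ITGAL lie at 53.7 FPKM or above in all 6 libraries, and ITGAX at day 3 is the lowest pair of points, at 0.494 and 0.695.

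Against control, 2 of the 9 genes passed the edgeR threshold at day 3 and 1 of 9 at day 5, all of them alpha partners of ITGB2 and all lower. The share of tested genes past that threshold was 11.7% at day 3 (5.99% lower) and 14.5% at day 5 (7.05% lower), so with 9 genes the counts are small on either side of the background. With the replicate number as a block, the same 2 genes passed at day 3 (27.8% of all tested genes), and 6 of 9 at day 5 (30.3% of all tested genes). DESeq2 called 3 of 9 at day 5, ITGAL, ITGAM and ITGA4 (18.1% of the 15231 genes to which it gave an adjusted p). The median log2 fold change of the 9 genes was -0.23 at day 3 and -0.35 at day 5, beside medians near 0 over all tested genes (-0.00012 and 0.015). Both KO-labelled libraries lay below both controls for 3 genes at day 3, a pattern that 30.1% of tested genes showed. At day 5 they lay below for 4 genes (28.4% of tested genes) and above for 1 (29.6%).

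**Figure D2:**
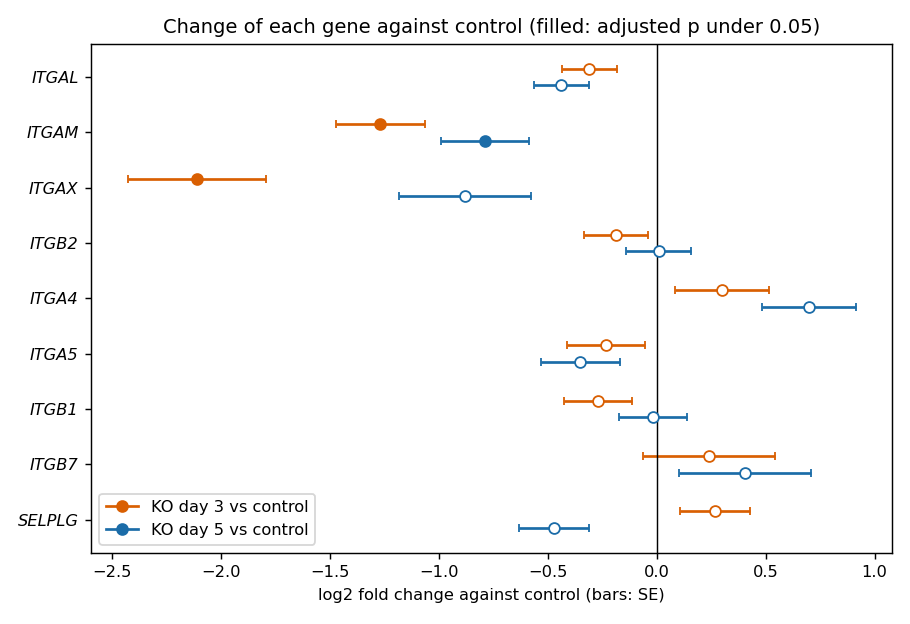
Log2 fold change against the shared controls (x axis) for each gene at day 3 and day 5, with standard errors as bars; filled points passed the edgeR adjusted p threshold of 0.05. ITGAX and ITGAM at day 3 are farthest to the left, at -2.11 and -1.27, and ITGA4 at day 5 is farthest to the right, at 0.70.

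ITGAX (ENSG00000140678), the CD11c chain of myeloid and dendritic cells, showed the largest difference among the 9 genes at day 3. It lies on chromosome 16 at 31355134 to 31382997 (plus strand, GRCh38, GENCODE release 29). Its level was 18.3 and 19.1 CPM in control replicates 1 and 2, 3.55 and 5.11 on day 3, then 7.64 and 12.7 on day 5. Every KO-labelled library was below both controls, and both day 5 libraries were above both day 3 libraries. ITGAX fell at day 3 by 2.11 on the log2 scale (edgeR adjusted p = 0.00778, SE 0.318). Leaving out KO day 3 replicate 1 ended this call (-1.86, edgeR adjusted p = 0.057), as did limma on unfiltered log2(FPKM + 1) (adjusted p = 0.0659). At day 5 the log2 fold change was -0.88 (edgeR adjusted p = 0.0913, SE 0.303), which passed the threshold with the replicate block (-0.92, edgeR adjusted p = 0.00591) and without a filter on low counts (edgeR adjusted p = 0.0148).

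ITGAM (ENSG00000169896), the CD11b chain, lies 22241 bases upstream of ITGAX on the same strand, at chromosome 16, 31259967 to 31332892. It was counted at 28.4 and 38.6 CPM in control libraries, 13.8 and 14.1 on day 3, then 18.0 and 20.9 on day 5. The groups did not overlap at either day, and day 5 lay above day 3. ITGAM fell at day 3 by 1.27 (edgeR adjusted p = 0.00964, SE 0.204) and at day 5 by 0.79 (edgeR adjusted p = 0.0368, SE 0.201) on the log2 scale. The day 3 call ended on leaving out KO day 3 replicate 1 (-1.24, edgeR adjusted p = 0.0716) or 2 (-1.27, edgeR adjusted p = 0.0646), and with limma on unfiltered log2(FPKM + 1) (adjusted p = 0.0651). Only control replicate 1 could be left out at day 5 without losing the call. The value was -0.58 without control replicate 2 (edgeR adjusted p = 0.139), -0.81 without either KO day 3 library (replicate 1 then 2: 0.0593 and 0.0561), and -0.70 and -0.90 without either KO day 5 library (replicate 1 then 2: 0.142 and 0.0956). It was also lost when only these 4 libraries were fitted (-0.81, edgeR adjusted p = 0.0643) and in each of the 3 limma fits (adjusted p = 0.0591 to 0.127).

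RefSeq promoter windows (GRCh38.p14) matched 5 of the 9 genes, namely ITGAM, ITGA4, ITGA5, ITGB1 and ITGB7; ITGAL, ITGAX, ITGB2 and SELPLG were not matched. The ITGAM window is shown because ITGAM was the gene called at both days. It holds the 250 bases before the start annotated in RefSeq, which lies downstream of the GENCODE start at 31259967. These bases, chr16:31259725-31259974, are shown on the plus strand, 5′ to 3′, with motif matches in capitals:

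ITGAM: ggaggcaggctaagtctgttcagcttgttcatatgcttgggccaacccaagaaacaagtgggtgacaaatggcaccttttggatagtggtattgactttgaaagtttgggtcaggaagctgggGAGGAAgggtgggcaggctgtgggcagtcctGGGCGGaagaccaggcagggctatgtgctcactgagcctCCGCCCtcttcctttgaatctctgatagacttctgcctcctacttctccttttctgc

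Both strands were searched for the PU box (GAGGAA, a core bound by the myeloid factor PU.1), the GC box (GGGCGG), the TATA box (TATAAA) and the E-box (CACGTG), none of which overlapped another kind in this window. ITGAM held 1 PU box, starting 127 bases before the RefSeq start, and 2 GC boxes, at 96 bases on the plus strand and 57 bases on the minus strand. A PU box was also present in the ITGB7 window and in 1 of the 2 ITGB1 windows, and absent from those of ITGA4 and ITGA5. Both ITGB1 windows lie inside the GENCODE span of that gene. Of 35116 promoter windows of this length, 23.6% held a PU box, 42.6% a GC box, 10.7% a TATA box and 6.34% an E-box, so these matches are a description and show no binding. SPI1, which encodes PU.1, stood at 281 and 351 CPM in control libraries, 182 and 211 on day 3, then 191 and 233 on day 5. As with the summed myeloid markers above, its part in the ITGAM and ITGAX values was not tested, and in bulk RNA fewer expressing cells and less RNA per cell cannot be told apart.

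ITGAL (ENSG00000005844; chromosome 16, 30472658 to 30523185, plus strand), the CD11a chain, was lower by a smaller margin. It stood at 522 and 487 CPM in control libraries, 417 and 398 on day 3, then 343 and 403 on day 5. All 4 KO-labelled libraries lay below both controls. The log2 fold change was -0.31 at day 3 (edgeR adjusted p = 0.149, SE 0.126) and -0.44 at day 5 (edgeR adjusted p = 0.0538, SE 0.126), neither past the threshold. The day 5 value passed it with the replicate block (-0.44, edgeR adjusted p = 0.00995), with DESeq2 (adjusted p = 0.0162), without control replicate 2 (-0.52, edgeR adjusted p = 0.0381), and with 3 other settings of scaling or filter (edgeR adjusted p = 0.00896 to 0.0468). Antisense genes share 3.15% and 6.41% of the ITGAL exon bases, and the library kit is not stated to keep strand.

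ITGB2 (ENSG00000160255; chromosome 21, 44885953 to 44931989, minus strand), the common beta chain of these 3 partners, overlapped between the groups. It had 622 and 479 CPM in control libraries, 508 and 460 on day 3, then 567 and 542 on day 5. The 2 control libraries were farther apart than the 2 libraries of either KO-labelled group. The log2 fold change was -0.19 at day 3 (edgeR adjusted p = 0.447, SE 0.148) and 0.0094 at day 5 (edgeR adjusted p = 0.975, SE 0.148), and the sign of the day 5 value turned with the scaling. ITGB2-AS1, an antisense gene, shares 4.46% of the ITGB2 exon bases.

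**Figure D3:**
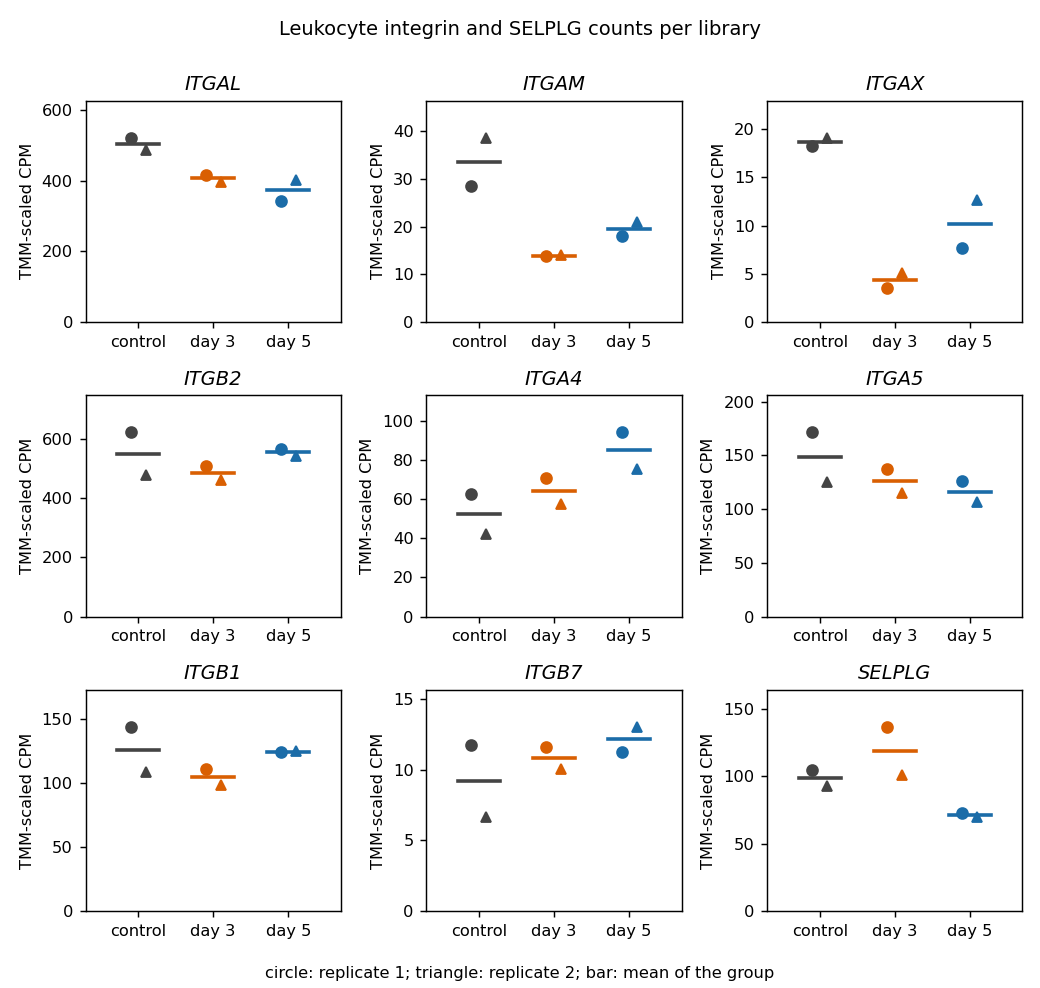
TMM-scaled CPM (y axis, from 0) of each gene in the 6 libraries (circle, replicate 1; triangle, replicate 2; bar, group mean). ITGAM and ITGAX show both KO-labelled groups below both controls and the day 3 pair lowest, while ITGB2 and ITGB1 overlap between control and either KO-labelled group.

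The partners of ITGB2 were therefore compared within each library on the FPKM scale. ITGAL made up most of the summed FPKM of ITGAL, ITGAM and ITGAX, at 91.4% and 88.8% in control libraries, 95.7% and 95.1% on day 3, then 92.6% and 91.9% on day 5. ITGAM held 5.66% and 8.02% of this sum in control libraries, 3.59% and 3.83% on day 3, then 5.53% and 5.42% on day 5. The ITGAX share was 2.92% and 3.19% in control libraries, 0.744% and 1.12% on day 3, then 1.89% and 2.65% on day 5. Each of the 3 shares separated day 3 from control and from day 5 without overlap, the ITGAL share being highest and the others lowest at day 3. The shares are parts of 1 sum, so the higher ITGAL share restates the lower ITGAM and ITGAX shares. Of single tested genes, 30.1% lay below control without overlap at day 3, and 49.2% separated day 5 from day 3 in either direction. No such background was computed for shares. The summed FPKM of the 3 partners over that of ITGB2 was 0.964 and 1.2 in control libraries, 0.902 and 0.955 on day 3, then 0.686 and 0.849 on day 5. Between 2 groups of 2 libraries the smallest two-sided exact permutation p is 0.333, and the shares and ratios are given as descriptions; no test over the 3 groups was run.

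ITGA4 (ENSG00000115232; chromosome 2, 181457202 to 181536187, plus strand), the alpha chain of VLA-4, had the highest positive log2 fold change of the 9 genes at both days. Its level was 62.5 and 42.2 CPM in control libraries, 70.9 and 57.7 on day 3, then 94.1 and 75.6 on day 5. Day 3 overlapped with the controls, and both day 5 libraries were above every other library. The log2 fold change was 0.30 at day 3 (edgeR adjusted p = 0.402, SE 0.215) and 0.70 at day 5 (edgeR adjusted p = 0.0689, SE 0.216), neither past the threshold. At day 5 it passed with the replicate block (0.71, edgeR adjusted p = 0.000325), DESeq2 (adjusted p = 0.0318), no filter on low counts (edgeR adjusted p = 0.000939) or without control replicate 1 (0.9995, edgeR adjusted p = 0.0182). No 50-base stretch of the annotated ITGA4 transcripts occurs in transcripts of another gene.

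ITGA5 (ENSG00000161638; chromosome 12, 54395261 to 54419460, minus strand), the fibronectin receptor chain, stood at 172 and 125 CPM in control libraries, 138 and 115 on day 3, then 127 and 106 on day 5. Each KO-labelled group overlapped with the controls. Its log2 fold change was -0.23 at day 3 (edgeR adjusted p = 0.439, SE 0.18) and -0.35 at day 5 (edgeR adjusted p = 0.232, SE 0.181), and the day 5 value passed with the replicate block (-0.34, edgeR adjusted p = 0.033).

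ITGA4 made up 25.9% and 24.4% of the summed FPKM of ITGA4 and ITGA5 in control libraries, 33.1% and 32.4% on day 3, then 41.6% and 40.6% on day 5. The groups did not overlap, and the 2 libraries of each group differed by less than the groups did. Of single tested genes, 29.6% lay above control without overlap at day 5, and no such background was computed for shares. Replicate 1 exceeded replicate 2 for both genes in each group, so the share varied less within groups than either level.

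**Figure D4:**
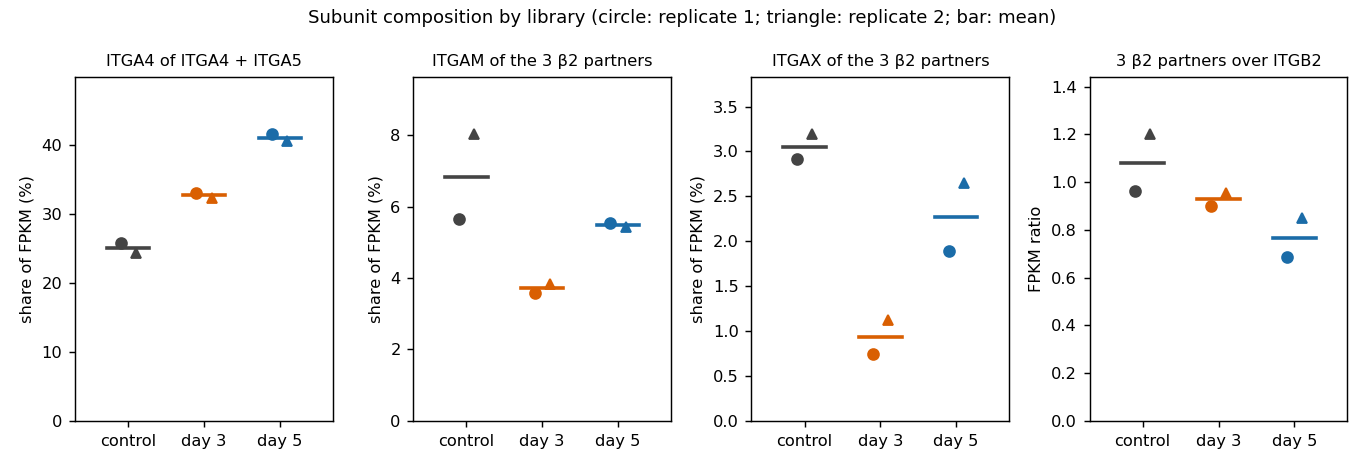
Shares and a ratio of deposited FPKM in each library (y axes from 0; circle, replicate 1; triangle, replicate 2; bar, group mean). From left to right, the panels show ITGA4 among ITGA4 and ITGA5, then ITGAM and ITGAX among ITGAL, ITGAM and ITGAX. The last panel shows the sum of ITGAL, ITGAM and ITGAX over ITGB2. The ITGA4 share steps from 25.2% to 32.8% to 41.1% on average, and the ITGAX share is lowest at day 3, at 0.931% on average.

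ITGB1 (ENSG00000150093; chromosome 10, 32900319 to 33005792, minus strand), the beta chain for ITGA4 and ITGA5, had 144 and 108 CPM in control libraries, 111 and 98.4 on day 3, then 124 and 125 on day 5. The controls enclosed both day 5 values. The log2 fold change was -0.27 at day 3 (edgeR adjusted p = 0.294, SE 0.155) and -0.018 at day 5 (edgeR adjusted p = 0.954, SE 0.155). Of the 50-base stretches of ITGB1 transcripts, 8.86% also occur in AC022149.1, so its count is less certain.

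ITGB7 (ENSG00000139626; chromosome 12, 53191318 to 53207307, minus strand), the other beta partner of ITGA4, was low, at 11.8 and 6.62 CPM in control libraries, 11.6 and 10.1 on day 3, then 11.3 and 13.0 on day 5. The groups overlapped at both days. Its log2 fold change was 0.24 at day 3 (edgeR adjusted p = 0.65, SE 0.304) and 0.41 at day 5 (edgeR adjusted p = 0.408, SE 0.304). ITGB7 shares 42.1% of its exon bases with ZNF740 on the opposite strand, so its reads cannot be told apart there. ZNF740 had log2 fold changes of -0.025 (edgeR adjusted p = 0.945) and -0.48 (edgeR adjusted p = 0.0883). The ITGB7 share of the summed FPKM of ITGB1 and ITGB7 was 9.89% and 7.56% in control libraries, 12.3% and 12.1% on day 3, then 10.9% and 12.3% on day 5.

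SELPLG (ENSG00000110876; chromosome 12, 108622277 to 108633959, minus strand), the P-selectin ligand, had log2 fold changes of opposite sign at the 2 days. It stood at 105 and 93.2 CPM in control libraries, 137 and 101 on day 3, then 72.6 and 69.9 on day 5. Day 3 overlapped with the controls, and day 5 lay below every other library. The log2 fold change was 0.27 at day 3 (edgeR adjusted p = 0.309, SE 0.161) and -0.47 at day 5 (edgeR adjusted p = 0.0899, SE 0.161). The day 5 value passed the threshold with the replicate block (-0.47, edgeR adjusted p = 0.00763) and without a filter on low counts (edgeR adjusted p = 0.0103).

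Between day 5 and day 3, 0 of the 9 genes passed the edgeR threshold, as did 0.0274% of all tested genes. At an unadjusted edgeR p under 0.05 there were 3 of the 9 (15.1% of all tested genes). DESeq2 called 2, SELPLG and ITGAX (2.69% of the 11373 genes to which it gave an adjusted p). The 3 limma fits called 0, and edgeR with the replicate block called the same 2 genes as DESeq2 (7.65% of all tested genes). SELPLG had a log2 fold change of -0.74 (edgeR adjusted p = 0.171, SE 0.162), which became -0.73 with the replicate block (edgeR adjusted p = 0.00224) and -0.76 with DESeq2 (adjusted p = 0.0116). ITGAX had 1.23 (edgeR adjusted p = 0.196, SE 0.315), which became 1.22 with the block (edgeR adjusted p = 0.00712) and with DESeq2 (adjusted p = 0.0376). ITGAM followed with 0.48 (edgeR adjusted p = 0.321, SE 0.204). The 2 day 5 libraries lay above both day 3 libraries for ITGAM, ITGAX, ITGB2, ITGA4 and ITGB1 and below them for SELPLG, and 49.2% of tested genes had groups that did not overlap.

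Binding of selectins by SELPLG depends on modification of its sugars and, for some selectins, of its tyrosines. The enzymes that make these modifications were examined as a list. Of 20 tested genes of selectin ligand glycosylation and sulfation, 4 fell and 0 rose at day 3, and 4 fell and 0 rose at day 5 (20% each, beside 11.7% and 14.5% of all tested genes called and 5.99% and 7.05% called lower). The median log2 fold change was -0.23 and -0.34. The genes of this list were picked with earlier results of these data known. ST3GAL6 and ST3GAL4, sialyltransferases that cap selectin ligands, fell at both days. ST3GAL6 was at 14.5 and 14.4 CPM in control libraries, 5.63 and 3.52 on day 3, then 5.77 and 5.52 on day 5, with log2 fold changes of -1.66 (edgeR adjusted p = 0.0137, SE 0.297) and -1.35 (edgeR adjusted p = 0.0222, SE 0.294). ST3GAL4 had -0.53 (edgeR adjusted p = 0.0433, SE 0.136) and -0.75 (edgeR adjusted p = 0.0122, SE 0.137). B4GALT1, a galactosyltransferase, also fell at both days, by 0.90 each (edgeR adjusted p = 0.0441 and 0.039). TPST2, a tyrosine sulfotransferase, fell at day 3 by 0.62 (edgeR adjusted p = 0.032), and GNE, which starts sialic acid synthesis, fell at day 5 by 1.15 (edgeR adjusted p = 0.0483).

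Many of these glycosylation calls were lost when a library was left out, which leaves 1 library in its group. Leaving out control replicate 1 or either KO library of a comparison also lowered the calls over all tested genes. Each named gene of the list kept the sign of its log2 fold change. B4GALT1 at day 3 ranged from -1.165 to -0.569, and ST3GAL6 at day 5 from -1.401 to -1.322. With the replicate block 7 and 8 genes of the list were called (27.8% and 30.3% of all tested genes). Leaving out KO day 3 replicate 2 ended the ST3GAL6 call at day 3 (edgeR adjusted p = 0.0994), and the day 5 call ended without control replicate 1 or 2 (0.0606 and 0.0523) or either KO day 5 library (replicate 1 then 2: 0.075 and 0.093). ST3GAL4 at day 3 was lost without any library but control replicate 2 (edgeR adjusted p = 0.0652 to 0.264), and at day 5 without KO day 5 replicate 2 (0.0745). B4GALT1 at day 3 was likewise lost without any library but control replicate 2 (edgeR adjusted p = 0.0682 to 0.239; -0.57 without control replicate 1), and at day 5 without control replicate 1 (-0.57, 0.109) or either KO day 5 library (replicate 1 then 2: 0.114 and 0.171). TPST2 was lost without control replicate 1 (edgeR adjusted p = 0.0935) or either KO day 3 library (replicate 1 then 2: 0.13 and 0.233), and GNE without any 1 of the 6 libraries (0.0856 to 0.164). Both filtered limma fits ended the calls of TPST2 at day 3 (adjusted p = 0.0502 and 0.0509), of B4GALT1 at day 3 (0.069 and 0.0694) and day 5 (0.0764 and 0.079) and of GNE at day 5 (0.106 and 0.122). ST3GAL6 at day 5 was lost with limma on log2(FPKM + 0.1) (adjusted p = 0.0506). Unfiltered limma called 0 genes of this list at either day, and with only the groups compared ST3GAL4 and B4GALT1 at day 3 and GNE at day 5 were lost (edgeR adjusted p = 0.0634, 0.0741 and 0.0838).

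Genes that activate integrins or link them to the cytoskeleton were examined as a further list. Of 36 tested, 11 fell and 1 rose at day 3, and 7 fell and 2 rose at day 5, with median log2 fold changes of -0.48 and -0.21. That is 33.3% and 25% of the list, beside 11.7% and 14.5% of all tested genes, and the genes of this list were picked with earlier results of these data known. RASGRP2, the exchange factor that loads RAP1 with GTP, fell from 85.7 and 111 CPM in the controls to 46.4 and 51.2 on day 3, then 45.6 and 38.8 on day 5. Its log2 fold change was -1.01 (edgeR adjusted p = 0.0108, SE 0.168) and -1.22 (edgeR adjusted p = 0.00476, SE 0.169). APBB1IP, the RAP1 effector RIAM that recruits talin, fell by 0.73 (edgeR adjusted p = 0.0194, SE 0.145) and 1.13 (edgeR adjusted p = 0.00399, SE 0.147). FYB1, an adaptor that joins RIAM to integrin signalling, fell by 1.41 (edgeR adjusted p = 0.00463, SE 0.184) and 0.95 (edgeR adjusted p = 0.0144, SE 0.181). PTK2B, the adhesion kinase PYK2, fell by 0.62 (edgeR adjusted p = 0.021, SE 0.126) and 0.76 (edgeR adjusted p = 0.00889, SE 0.127). TLN2, the less studied of the talins, rose from 6.81 and 6.18 CPM to 17.3 and 16.9 on day 3, then 17.7 and 20.6 on day 5 (log2 fold changes 1.40 and 1.56, edgeR adjusted p = 0.00743 and 0.00426). The other talin gene of the list, TLN1, went the other way (log2 fold changes -0.58 and -0.62, edgeR adjusted p = 0.0415 and 0.0306). TLN1 was not among the named genes and was not followed over the other settings.

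With the replicate block 21 and 18 activation and adhesion genes were called (27.8% and 30.3% of all tested genes). Leaving out either KO library of a comparison gave fewer calls in this list and over all tested genes. Each named gene of the list kept the sign of its log2 fold change. RASGRP2 ranged from -1.184 to -0.8018 at day 3, and FYB1 from -1.027 to -0.8864 at day 5. At day 3, RASGRP2 was lost without either KO day 3 library (replicate 1 then 2: edgeR adjusted p = 0.0865 and 0.0611), PTK2B likewise (0.201 and 0.083), and TLN2 without KO day 3 replicate 1 (0.0537). APBB1IP at day 3 was lost without control replicate 1 (edgeR adjusted p = 0.0534) or either KO day 3 library (replicate 1 then 2: 0.104 and 0.154). At day 5, FYB1 was lost without either KO day 5 library (replicate 1 then 2: edgeR adjusted p = 0.0512 and 0.0797) and PTK2B without KO day 5 replicate 1 (0.0505). TLN2 at day 3 was lost with each limma fit (adjusted p = 0.0814 to 0.145), and at day 5 with limma on log2(FPKM + 1) (adjusted p = 0.05). Unfiltered limma also ended the day 3 calls of APBB1IP, RASGRP2 and PTK2B (adjusted p = 0.0866, 0.0627 and 0.0764) and the day 5 calls of TLN2, FYB1 and PTK2B (0.0828, 0.0726 and 0.0534).

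**Figure D5:**
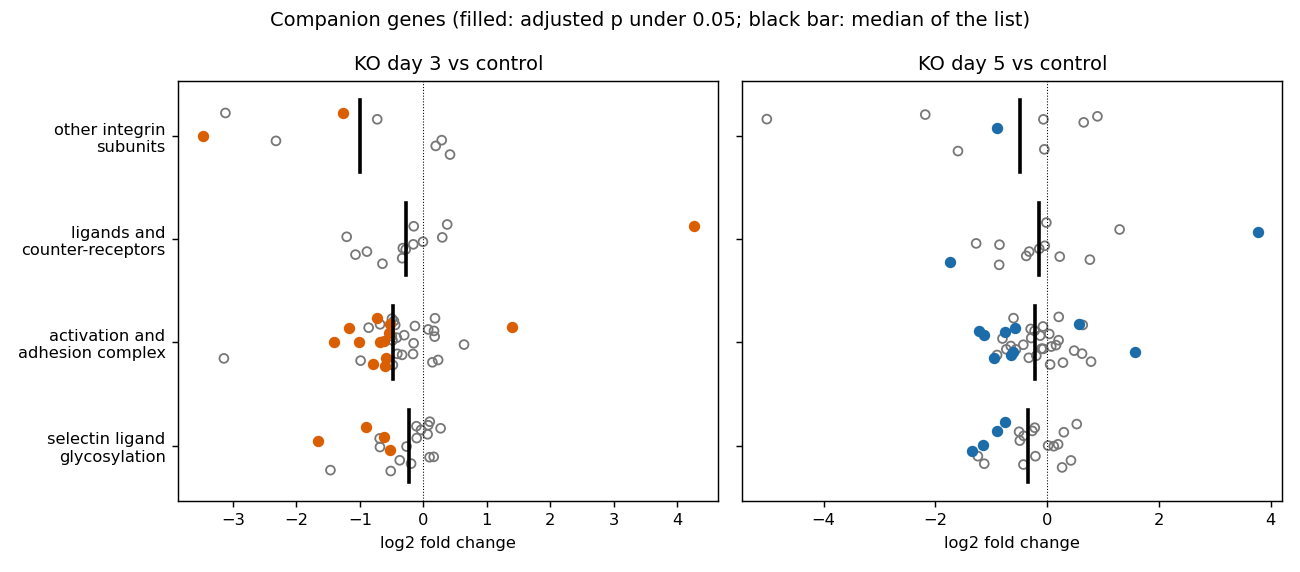
Log2 fold change against control (x axis) of every tested gene in the 4 companion lists (rows; points are spread vertically only for legibility), at day 3 on the left and day 5 on the right. Filled points passed the edgeR threshold and black bars are list medians, which for the activation and adhesion list are -0.48 and -0.21.

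Of 8 other integrin subunits tested, 2 fell at day 3, 1 fell at day 5 and 0 rose at either day (25% and 12.5% of the list, beside 11.7% and 14.5% of all tested genes called). This list, like that of ligands and counter-receptors below, was picked with earlier results of these data known. ITGA7, a laminin receptor chain that pairs with ITGB1, fell from 104 and 121 CPM to 46.3 and 47.5 on day 3, then 53.0 and 67.8 on day 5 (log2 fold changes -1.26 and -0.89, edgeR adjusted p = 0.00394 and 0.0107). Leaving out KO day 5 replicate 1 ended the day 5 call (edgeR adjusted p = 0.0541), as did unfiltered limma (adjusted p = 0.0689). ITGA1, a collagen receptor chain, stood at 10.4 and 2.78 CPM in control libraries, 0.886 and 0.275 on day 3, then 1.25 and 1.64 on day 5. It fell at day 3 (log2 fold change -3.48, edgeR adjusted p = 0.0322), a call that held without control replicate 2 and was lost without any other library (edgeR adjusted p = 0.0534 to 0.168; -2.24 without control replicate 1), with only the groups compared (0.0569) and with unfiltered limma (adjusted p = 0.322). At day 5 ITGA1 had -2.18 (edgeR adjusted p = 0.0891), and it passed the threshold with the replicate block (edgeR adjusted p = 0.0154) and without control replicate 2 (0.0234). At day 5, 4 of these subunits were called with the replicate block, beside 30.3% of all tested genes.

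Among 13 tested ligands and counter-receptors, 1 rose and 0 fell at day 3, and 1 rose and 1 fell at day 5 (7.69% and 15.4% of the list, near the 11.7% and 14.5% of all tested genes called). THBS1, an extracellular matrix glycoprotein that binds integrins and CD47, had 4 and 1 counts in the controls (0.257 and 0.0479 CPM), 2.55 and 3.19 CPM on day 3, then 1.98 and 2.08 CPM on day 5. It passed at both days (edgeR adjusted p = 0.0131 and 0.0166), was lost at day 3 without KO day 3 replicate 2 (0.0614), was lost at both days with unfiltered limma (adjusted p = 0.17 and 0.244), and its size is uncertain at such counts. C3, whose cleaved form binds Mac-1 and CR4, fell at day 5, from 8.87 and 12.9 CPM to 3.06 and 3.50 (log2 fold change -1.73, SE 0.378, edgeR adjusted p = 0.0227). That call was lost without control replicate 2 (edgeR adjusted p = 0.0779) or either KO day 5 library (replicate 1 then 2: 0.0864 and 0.08), and with each limma fit (adjusted p = 0.0673 to 0.118). At day 3 C3 had -1.21 (edgeR adjusted p = 0.0737) and passed with the replicate block (0.00423). At day 3, 2 ligands were called with the replicate block, beside 27.8% of all tested genes.

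The genes whose log2 CPM over the 6 libraries was most like that of ITGB2, among 9861 genes at a mean of at least 5 CPM, were CTBP2, IFNAR1 and NPAT (Pearson r = 0.994, 0.99 and 0.989). For ITGB1 they were KIAA1551, PTPRC and FNDC3A (Pearson r = 0.998, 0.994 and 0.991). These are descriptions over 6 points that share groups and replicate numbers, and the highest of many values.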

How the data were processed

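Poly-A RNA-seq of 6 MOLM-13 libraries was analysed. Per the file headers, the authors deposited, per library, 1 column of read counts and 1 of FPKM over 24878 genes. The submitters' processing notes list HISAT2, HTSeq 0.11.2, DESeq2 1.26.0 and GRCh38; which annotation and read-counting settings applied is not given in the sources used here. Groups came from the labels. The members and gene lists were chosen with earlier results of these data known.

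Counts passing filterByExpr (minimum count 10, minimum total 15) left 14601 genes, among them all 9 members. With edgeR 4.0.16 in R 4.3.3, 1 model of the 3 groups was fitted with TMM factors (0.962 to 1.04), the robust quasi-likelihood test and Benjamini-Hochberg adjustment over all tested genes (threshold 0.05). A prior count of 0.125 entered each log2 fold change, and its SE was obtained by dividing its size by the root of the F statistic. CPM are TMM-scaled. Subunit shares use the deposited FPKM. Positions, exon overlaps and shared 50-base stretches came from GENCODE release 29. Low depth limits ITGAX, at 68 counts in KO day 3 replicate 1.

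The named genes are the 9 members, up to 5 genes with the smallest adjusted p from each of 4 companion lists, and the 3 genes most like ITGB2 and ITGB1. The alias FYB is counted once, as FYB1. On data simulated with the spread estimated from these libraries, the fit recovered 31.3% of 2-fold and 76.6% of 4-fold changes at day 3. At day 5 it recovered 40.9% and 76.2%. The simulation changed far fewer genes than were called here, which makes the adjusted threshold harder to pass. These shares therefore do not tell how many changed genes went uncalled in these data. Deviations of same-numbered libraries from their group means correlated at 0.305, 0.241 and 0.269 for the 3 pairs of groups (with 2 libraries a group, replicate 2 mirrors replicate 1). A pairing by replicate number was therefore taken from the data and not from the labels. It entered only the replicate block. The main fit had no replicate term, so its p-values do not account for such pairing. The alternatives were other scaling (relative log expression, upper quartile), no filter, requiring 5 CPM or more in 2 libraries, DESeq2 1.42.0, only the groups compared, the replicate block, leaving out each library, and limma 3.58.1 on log2(FPKM + 1) or log2(FPKM + 0.1) for genes averaging 0.5 FPKM or more, and unfiltered on log2(FPKM + 1).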

Additional observations from a re-analysis of the deposited data

How the results depend on the processing

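With 2 libraries a group, call counts moved readily, and leaving out a library assumes that the lone one varies like the other groups. The settings below are given in this order: day 3, then day 5, each against control. Genes called were 1710 and 2117, and 4 between the days. They became 2925, 3234 and 599 without a filter, 4064, 4418 and 1117 with the replicate block, 254, 605 and 0 with unfiltered limma, 306 between the days with DESeq2, 1315 at day 5 with only the groups compared, and 1 and 0 between the days with limma on log2(FPKM + 1) and log2(FPKM + 0.1). Leaving out each library gave 282 to 1906 genes at day 3, 723 to 1874 at day 5 and 1 to 15 between the days.

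Of the 9 receptor genes, 2 were called at day 3 (0 with unfiltered limma, 0 to 2 leaving out each library). At day 5, 1 was called, and 2 with relative log expression factors or the 5 CPM filter, 5 without a filter, 3 with DESeq2, 6 with the replicate block, 0 with only the groups compared or with any limma fit, and 0 to 2 leaving out each library. Between the days 2 were called without a filter, with DESeq2 or with the replicate block. The block changed no other call among the receptor genes than those given above. Sign changes were limited to uncalled values near 0. ITGB2 at day 5 was -0.014 with relative log expression, -0.035 without a filter, -0.016 with DESeq2 and -0.0098 with only the groups compared, and -0.196 to 0.203 leaving out each library. ITGB1 at day 5 was 0.033 and 0.035 with limma on log2(FPKM + 1), filtered or not, and log2(FPKM + 0.1), and -0.236 to 0.191 leaving out each library. At day 3, ITGB2 ranged from -0.353 to 0.017, ITGA5 from -0.431 to 0.015 and ITGB7 from -0.110 to 0.711.

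Other integrin subunits called were 1 at day 3 with the 5 CPM filter, only the groups compared or any limma fit (1 to 3 leaving out each library), and at day 5 were 3 without a filter, 2 with DESeq2, 4 with the block and 0 with unfiltered limma (0 to 2). Ligands called were 2 at day 3 without a filter, with DESeq2 or with the block and 0 with the 5 CPM filter or any limma fit (0 to 2), and at day 5 were 1 with the 5 CPM filter and 0 with any limma fit (1 to 2). Activation and adhesion genes called were 19 at day 3 without a filter, 21 with the block, 6 with either filtered limma fit and 1 unfiltered (1 to 14), and at day 5 were 16 without a filter, 14 with DESeq2, 18 with the block and 2 with unfiltered limma (3 to 11). Glycosylation genes called were 7 at day 3 with the block and 0 with unfiltered limma (0 to 5), and at day 5 were 7 without a filter, 8 with the block, and 2, 1 and 0 with limma on log2(FPKM + 1), log2(FPKM + 0.1) and unfiltered (0 to 4). For the subunit shares and ratios neither setting tests stability: leaving out a library leaves 1 value in its group, and library scaling cancels between genes of a library. The causes were not tested.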

Other observations

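The 2 replicate numbers ordered several receptor genes the same way in every group. ITGB2, ITGA4, ITGA5 and SELPLG were higher in replicate 1 than in replicate 2 in control, day 3 and day 5, and ITGAM and ITGAX were higher in replicate 2 in all 3 groups, on the TMM-scaled CPM scale. On the FPKM scale ITGAM at day 3 was 2.383 in replicate 1 and 2.379 in replicate 2, so its order there did not hold. Over all tested genes, 20.2% were higher in replicate 1 in all 3 groups and 20.2% in replicate 2. Of the 10 myeloid markers, 6 were higher in replicate 2 in all 3 groups (CD33, SPI1, LYZ, MPO, CD14 and CSF1R), 2 were higher in replicate 1 in all 3 groups (PTPRC and FCGR1A) and 2 were mixed (FLT3 and CD68). The examples that follow were chosen after their values were seen. LYZ, which encodes lysozyme, stood at 139 and 392 CPM in control replicates 1 and 2, 33.6 and 178 on day 3, then 19.0 and 229 on day 5. FCGR1A, an Fc receptor, stood at 85.4 and 42.4, 31.0 and 29.7, and 21.8 and 13.6 CPM in the same order. CSF1R, the receptor for macrophage colony-stimulating factor, stood at 30.9 and 41.0 CPM in control libraries, 1.36 and 6.82 on day 3, then 1.53 and 5.35 on day 5. The labels give no meaning to the replicate number beyond the letters A and B in the sample titles.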
